A study of Rattus norvegicus with 12 samples.

Results

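Genes whose transcript level separated the left from the right ventricle (LV and RV) in sham-operated rats and again after volume overload (VO) were sought with the main effect of the ventricle, which set the 6 LV libraries against the 6 RV libraries with the treatment as a factor. Of the 32545 genes listed, 13910 reached 0.5 FPKM (fragments mapped to a gene, scaled by its length and by library depth) on average over the libraries and were tested, and 12 of them (0.0863%) were differentially expressed genes (DEGs), with 6 higher in the LV (0.0431%) and 6 higher in the RV (0.0431%). A DEG needed a Benjamini-Hochberg adjusted p under 0.05 in limma and a fold change over 1.3. All 12 DEGs had the same LV-RV direction in sham and in VO, which their choice by the mean of both differences largely fixes, so nothing is read from that count. Of all tested genes, 5152 (37%) had the same direction, 2757 higher (19.8%) and 2395 lower (17.2%) in the LV in both, and 8758 did not. At an unadjusted p under 0.05 with the same fold, 624 genes (4.49%) differed.

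The data were RNA-seq profiles of the LV and RV free walls of Sprague–Dawley rats at postnatal day 7. The VO rats had received a fistula between the abdominal aorta and the inferior vena cava on postnatal day 1, and the sham rats a sham operation on the same day. Each ventricle of each treatment had 3 libraries, which makes 4 groups. The labels do not say whether libraries came from separate animals, so p-values measure only the spread between libraries, and in bulk tissue fewer cells of a type cannot be told apart from less RNA per cell.

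The LV arises mainly from the first heart field, and the RV and outflow tract mainly from the second. Regulators such as Hand1 (LV-enriched) and Hand2 (RV-enriched in the early heart), Tbx5 and the Irx genes pattern the chambers. At birth the LV takes over a higher pressure load than the RV, and natriuretic peptide genes, which respond to wall stretch, are read as markers of load and of immature or trabecular myocardium.

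Libraries held between 14121713 and 16871371 reads on genes. Ventricular cardiomyocyte markers (9 genes) summed to between 17810 and 28400 FPKM, lowest in VO RV 2 and sham RV 1. Libraries sham RV 1 and VO RV 2 stood apart in markers of atrial cardiomyocytes. Sln, an atrial regulator of the calcium pump, was at 97.7 and 388 FPKM there and at 0 to 0.678 in the other 10, and the 11 atrial markers summed to 546 and 1674 FPKM, against 240.5 to 384 elsewhere. Y-linked genes summed to between 56.1 and 64.9 FPKM in sham LV 1 and 2, sham RV 1 and 2 and VO RV 3, and to at most 0.373 in the other 7, so that the 2 VO libraries numbered 3 did not come from 1 animal. Some libraries were most correlated, across genes, with one of the other ventricle. These were sham LV 1 and sham LV 2 (with VO RV 3, r = 0.979 and 0.9697), VO RV 3 (with sham LV 1), sham RV 1 (with VO LV 3, r = 0.9746) and VO RV 1 (with VO LV 1, r = 0.9791). Values without sham RV 1 and VO RV 2 are given beside the DEGs and lists for which they are discussed. In that fit 4703 of 13890 tested genes (33.9%) had the same LV-RV direction in sham and VO, the share to set beside list counts without these libraries.

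The RefSeq promoters (GRCr8, 250 bases before to 50 after the start) of the DEGs that differed more than 2-fold with no overlap between the LV and RV libraries are shown first, chosen by the size of the difference and not by how steadily they passed. Of the 12 DEGs, 8 had an entry among the 33469 promoters, and Hcn4, Bok, Mgp and the U6 gene had none. The windows are chr10:42509635-42509934 on the minus strand for Hand1, chrX:104019834-104020133 on the plus strand for Tceal7, chr6:58435658-58435957 on the plus strand for Agr2 and chr11:14920376-14920675 on the minus strand for Epha3. Capitals mark the E-box CANNTG, the letters that bHLH factors such as HAND1 recognise, and the T-box half-site AGGTGT, searched on both strands.
Hand1: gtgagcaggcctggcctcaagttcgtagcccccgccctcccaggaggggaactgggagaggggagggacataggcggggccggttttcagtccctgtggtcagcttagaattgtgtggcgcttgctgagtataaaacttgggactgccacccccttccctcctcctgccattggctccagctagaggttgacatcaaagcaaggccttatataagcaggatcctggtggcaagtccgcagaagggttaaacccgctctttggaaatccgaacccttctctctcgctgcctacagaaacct
Tceal7: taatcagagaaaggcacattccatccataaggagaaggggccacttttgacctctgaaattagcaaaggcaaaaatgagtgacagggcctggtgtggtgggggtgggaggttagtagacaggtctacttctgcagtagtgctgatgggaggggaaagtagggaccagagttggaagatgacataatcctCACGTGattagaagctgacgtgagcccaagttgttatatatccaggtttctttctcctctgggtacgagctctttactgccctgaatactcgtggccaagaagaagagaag
Agr2: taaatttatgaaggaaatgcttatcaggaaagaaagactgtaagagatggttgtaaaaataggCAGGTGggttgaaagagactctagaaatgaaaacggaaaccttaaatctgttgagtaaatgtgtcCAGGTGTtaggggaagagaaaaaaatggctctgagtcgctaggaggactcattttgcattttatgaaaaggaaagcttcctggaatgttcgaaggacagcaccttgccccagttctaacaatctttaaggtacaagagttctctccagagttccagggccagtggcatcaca
Epha3: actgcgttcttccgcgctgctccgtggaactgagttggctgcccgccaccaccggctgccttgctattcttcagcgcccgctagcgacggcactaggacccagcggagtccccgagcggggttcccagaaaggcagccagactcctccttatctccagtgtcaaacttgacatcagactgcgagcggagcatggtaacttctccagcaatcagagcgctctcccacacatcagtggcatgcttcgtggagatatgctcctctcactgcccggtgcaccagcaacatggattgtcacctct
An E-box was found in 4 of the 8 DEG promoters (Tceal7, Ctnnbl1, Agr2 and Nppb), and 72.1% of all promoters held one. The T-box half-site was found in 1 of 8 (Agr2, where it overlaps an E-box), against 13.6% of all promoters. The GATA letters AGATAA were found in 2 of 8 (Nppb and Epha3), against 11.6%. The promoters of Hand1 and Epha3 held neither of the 2 motifs in capitals.

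Hand1, a bHLH transcription factor of the outer curvature and LV of the embryonic heart (chromosome 10, 43250745 to 43253296, minus strand, build not given in the sources used here), separated the ventricles with the smallest p of all tested genes. Its level was 2.58, 2.10 and 3.48 FPKM in sham LV, 0.802, 1.13 and 1.21 in sham RV, 5.21, 4.10 and 4.71 in VO LV and 0.318, 0.317 and 0.345 in VO RV. Every LV library lay above every RV library, and the gap was wider in VO. The difference LV minus RV on the log2(FPKM + 0.5) scale was 1.84 (SE 0.129, adjusted p = 0.000198 in limma), 1.04 in sham and 2.64 in VO. The difference between these 2 values, 1.60, passed its own test with all libraries (adjusted p = 0.0249). This call was lost without sham LV 1, sham LV 2, sham RV 1, VO LV 2 or VO LV 3. It was also lost without sham RV 1 and VO RV 2 together and with a block for the replicate number. Hand1 was read at low depth, with 5 to 19 reads in each RV library and 36 to 89 in each LV library. It was the only DEG that passed in all 29 alternative fits (adjusted p 0.000108 to 0.0308).

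Tceal7, an X-linked member of the transcription elongation factor A-like family, was the most abundant of the DEGs over 2-fold without overlap. It was at 134, 149 and 129 FPKM in sham LV, 50.5, 51.6 and 46.8 in sham RV, 147, 120 and 137 in VO LV and 76.1, 32.1 and 52.2 in VO RV. The LV libraries of both treatments overlapped, the RV means were 49.7 and 53.4 FPKM, and every LV library lay above every RV library. The log2 difference was 1.43 (SE 0.162, adjusted p = 0.0147), 1.46 in sham and 1.40 in VO. The call was lost without sham RV 3 or VO LV 1 (adjusted p up to 0.0673) and without sham LV 2 and VO RV 3 together (adjusted p = 0.0706).

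Nppb, which encodes the B-type natriuretic peptide, was at 211, 240 and 229 FPKM in sham LV and 130, 67.1 and 110 in sham RV. After VO it was at 357, 325 and 427 FPKM in the LV and 160, 226 and 148 in the RV. Within each treatment the LV libraries lay above the RV libraries, but VO RV 2 (226 FPKM) lay above sham LV 1, so the 6 LV and 6 RV libraries overlapped. The log2 difference was 1.13 (SE 0.159, adjusted p = 0.0262), 1.198 in sham and 1.07 in VO. Without the 2 libraries of high atrial markers it was 1.33 (adjusted p = 0.00916). The call held in 4 of the 12 fits that left out 1 library (adjusted p 0.0251 to 0.0825 over the 12).

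The other DEGs higher in the LV were Bok, a Bcl-2 family member, Ehd1, an ATPase of endocytic recycling, and a gene named U6. Bok averaged 69.0 ± 9.25 FPKM in the LV and 46.1 ± 6.17 in the RV (SD, n = 6), with 0.55 in sham and 0.61 in VO on the log2 scale (main effect 0.58, SE 0.0813, adjusted p = 0.0262). Ehd1 averaged 91.0 ± 6.68 FPKM in the LV and 66.2 ± 3.83 in the RV (SD, n = 6), with a main effect of 0.45 (SE 0.0572, adjusted p = 0.0205). Neither gene had an LV library below an RV library. Bok passed in 1 and Ehd1 in 7 of the 12 fits that left out 1 library. The U6 gene (ENSRNOG00000054090, one of many near-identical copies) rested on 3, 5 and 3 reads in sham LV, 0 in each sham RV library, 2, 1 and 2 in VO LV and 2, 1 and 1 in VO RV, so that its direction in VO rests on single reads. Its adjusted p was 0.0293, but how reads of such copies were assigned is not known, and its value is uncertain.

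Epha3, a receptor tyrosine kinase for ephrin ligands, had the largest fold of the DEGs higher in the RV. It was at 0.507, 0.310 and 0.328 FPKM in sham LV, 4.80, 3.98 and 2.64 in sham RV, 0.291, 0.587 and 2.02 in VO LV and 3.60, 2.53 and 2.21 in VO RV. The LV and RV libraries did not overlap, and VO LV 3 was close to the lowest RV library. The log2 difference was −1.79 (SE 0.259, adjusted p = 0.0293), −2.26 in sham and −1.32 in VO. The call held in 2 of the 12 fits that left out 1 library, those without VO LV 3 (adjusted p = 0.00308) or VO RV 3.

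Hcn4, the pacemaker channel of the sinoatrial node and an early mark of the first heart field, was higher in the RV. Its level was 0.566, 0.827 and 0.576 FPKM in sham LV, 4.06, 3.01 and 3.53 in sham RV, 1.15, 0.513 and 1.76 in VO LV and 3.64, 3.81 and 2.22 in VO RV. All RV libraries lay above all LV libraries, those with low atrial markers included. The log2 difference was −1.51 (SE 0.197, adjusted p = 0.0221), −1.80 in sham and −1.23 in VO. Without sham RV 1 and VO RV 2 it was −1.41 (adjusted p = 0.135), and the call held in 5 of the 12 fits that left out 1 library.

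Agr2, a disulfide isomerase of the endoplasmic reticulum of secretory epithelia, was at 0.0772 to 0.830 FPKM in the LV and 1.08 to 3.04 in the RV. In reads, the LV held 2 to 21 and the RV 25 to 85 in each library. The log2 difference was −1.60 (SE 0.225, adjusted p = 0.0262), −1.29 in sham and −1.92 in VO. As with Mgp and Ctnnbl1, the call held in 3 of the 12 fits that left out 1 library.

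Mgp, matrix Gla protein, an inhibitor of calcification, was the most abundant DEG of either direction. It was at 290, 163 and 223 FPKM in sham LV, 330, 317 and 383 in sham RV, 193, 229 and 223 in VO LV and 420, 473 and 423 in VO RV. The lowest RV library stood above the highest LV library, sham LV 1. The log2 difference was −0.83 (SE 0.123, adjusted p = 0.0309), −0.64 in sham and −1.03 in VO.

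Mpped2, a metallophosphodiesterase, averaged 5.90 ± 1.44 FPKM in the LV and 12.1 ± 1.94 in the RV (SD, n = 6), with no overlap. Its log2 difference was −0.99 (SE 0.118, adjusted p = 0.0153), −1.29 in sham and −0.69 in VO, and the call was lost without sham RV 1, sham RV 3 or VO LV 1, without sham LV 2 and VO RV 3 together (adjusted p = 0.0583) and with a block for the replicate number (adjusted p = 0.0579). Ctnnbl1, a nuclear protein bound to the splicing machinery, averaged 13.8 ± 0.581 FPKM in the LV and 18.6 ± 2.55 in the RV (SD, n = 6). It had the smallest difference of the 12 (−0.41, SE 0.0565, adjusted p = 0.0262), with −0.25 in sham and −0.57 in VO.

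**Figure D1:**
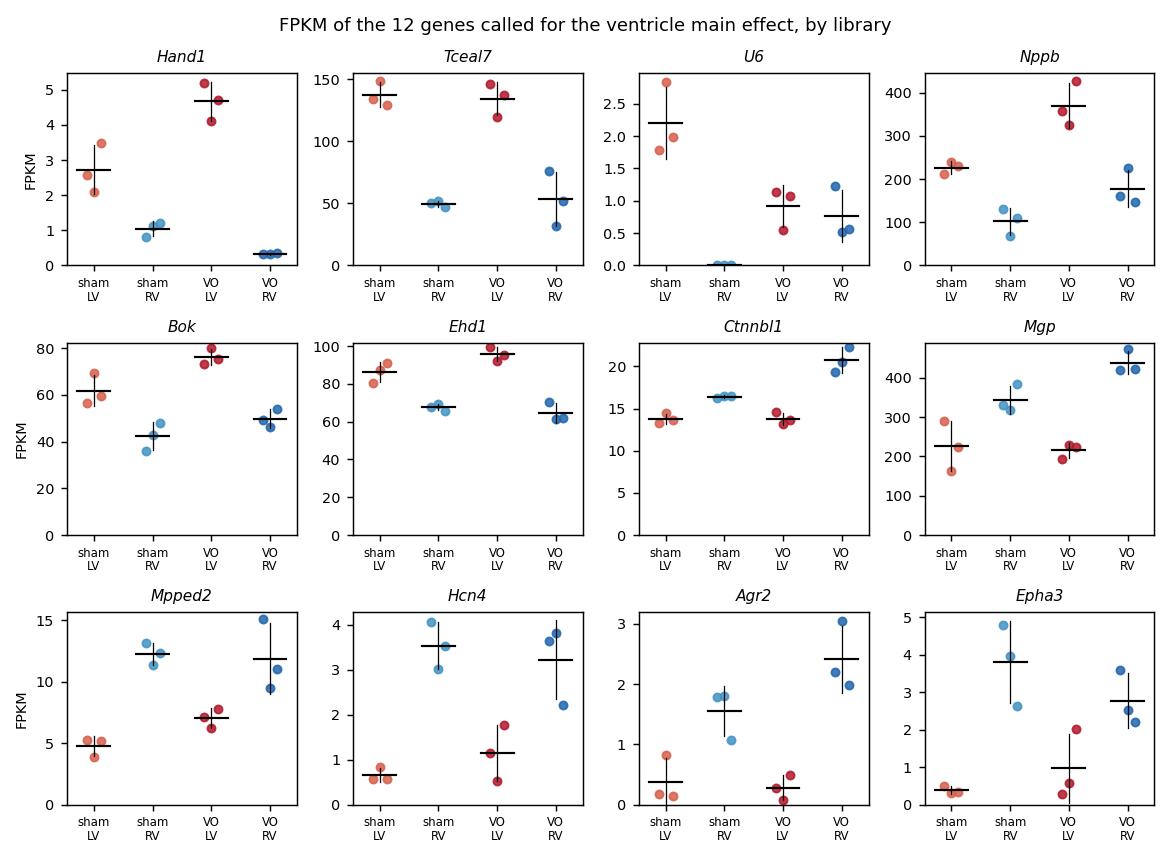
FPKM (y axis, linear from 0) of each of the 12 DEGs in the 4 groups (x axis), with 1 point per library, a bar at the mean of 3 libraries and a line of ± 1 SD. In 10 of the 12 genes no LV library overlaps an RV library, the exceptions being Nppb and the U6 gene.

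No overlap between the 6 LV and 6 RV libraries was seen in 119 tested genes (0.855%), 55 higher in the LV (0.395%) and 64 higher in the RV (0.46%), among them 10 of the 12 DEGs. Exchanging the ventricle labels within each treatment (exact permutation test, two-sided) allows 400 arrangements and a smallest p of 0.005. Of the tested genes, 197 genes (1.42%) reached 0.005, and this exact p adjusts to 0.353.

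In absolute size, the LV-RV difference was larger in VO than in sham for 6 of the 12 and smaller for 6. The test of the difference between VO and sham passed for 2 of the 12, Hand1 and the U6 gene, and for 583 of all tested genes (4.19%). A p that misses the threshold does not show that the other 10 were equally large in both treatments. The ratio of the VO to the sham difference for the 11 DEGs other than the U6 gene ran from 0.536 for Mpped2 to 2.53 for Hand1, and for the U6 gene, on 1 or 2 reads in each VO library, it was 0.0756. It was 0.961 for Tceal7, 0.891 for Nppb and 1.11 for Bok.

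Each treatment was next fitted alone, with no library shared. At an unadjusted p under 0.05 and a fold over 1.3, 2517 genes (18.1%) differed between the ventricles in sham and 976 (7.02%) in VO, of which 542 (3.9%) were higher and 434 (3.12%) lower in the LV. Of the 2517, 741 (29.4%) had the same sign in VO, and of the 976, 337 (34.5%) had the same sign in sham, against 37% of all tested genes. In all, 92 genes passed in both with the same sign, which is 3.66% of the former and 9.43% of the latter, and 310 passed in both with opposite signs. Of all tested genes, 7.02% passed in VO and 18.1% in sham, with either sign. The same-sign shares of 3.66% and 9.43% do not exceed these, so nothing is read from the number of the 92. Of the 92, 27 were higher and 65 lower in the LV. Among them were 9 of the 12 DEGs (not Ehd1, Ctnnbl1 and the U6 gene), where 92 of all 13910 tested genes were. The choice of the DEGs by the mean of the same differences largely fixes that overlap, so nothing is read from it. With adjusted p, 314 genes (2.26%) passed in sham and 1 (0.00719%), Hand1, in VO. Median gene length was 2133.5 bases for the 92 and 2324.5 for the 310, against 2165.5 for all tested genes.

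**Figure D2:**
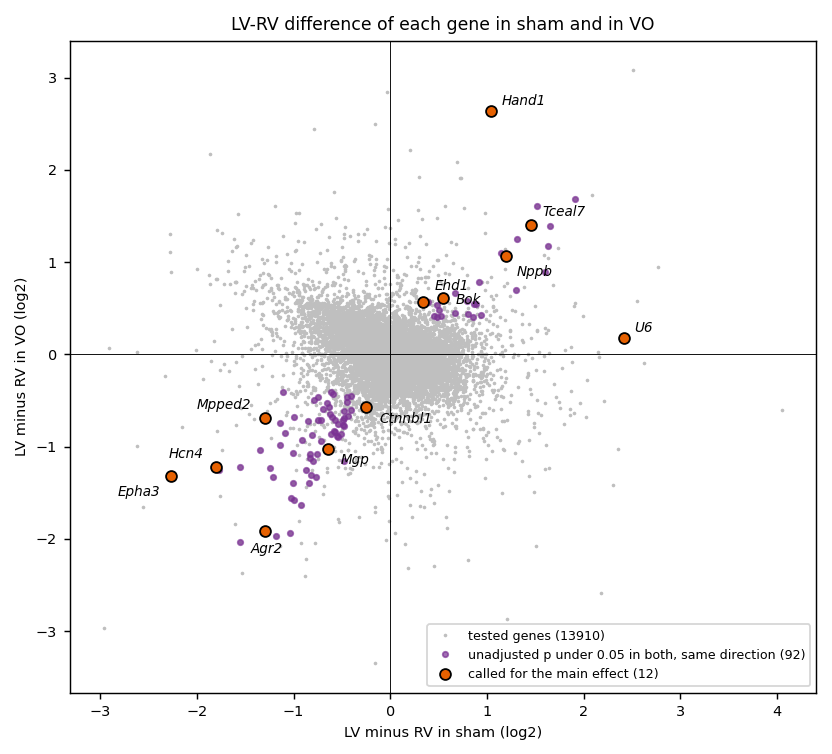
LV minus RV on the log2(FPKM + 0.5) scale in sham (x axis) and in VO (y axis), with 1 grey point for each of the 13910 tested genes, the 92 genes past the unadjusted threshold in both with the same sign in purple and the 12 DEGs in orange. The DEGs lie at the upper right and lower left, on the same side of 0 on both axes, which their choice by the mean of both differences largely fixes.

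Just past the threshold were AABR07029417.1 (−1.52), Neurl3 (1.00) and AABR07005985.2 (−1.201), each with an adjusted p of 0.0506, while Mgp, the last inside, was at 0.0309. Some genes whose LV and RV libraries did not overlap also fell short of the threshold. Gch1, the first enzyme of tetrahydrobiopterin synthesis, was at 2.63 to 4.09 FPKM in the LV and 1.62 to 2.38 in the RV (0.62, adjusted p = 0.0858). Also on the LV side were AABR07017268.1 (1.25), RGD1561551 (1.28), Ccdc28b (0.46) and Nxpe1 (0.42), with adjusted p from 0.0634 to 0.0778. Igfbp5, an insulin-like growth factor binding protein, was at 47.9 to 78.3 FPKM in the LV and 88.1 to 125 in the RV (−0.73, adjusted p = 0.0778), and Masp1, a protease of the lectin complement pathway, had −0.61 (adjusted p = 0.0652).

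Of the chamber regulators described here, Hand1 was a DEG and Tbx5, Irx4 and Hand2 were not. Tbx5, a first heart field factor, had −0.55 (adjusted p = 0.482) with all libraries and −0.23 without the 2 libraries of high atrial markers, which had its highest levels (9.01 FPKM in sham RV 1 and 14.9 in VO RV 2). Without them its direction was opposite in the treatments, −0.90 in sham and 0.44 in VO. Irx4, a ventricular homeobox gene, was at 0.22 (adjusted p = 0.608) with all libraries and at 0.0649 without those 2. Hand2 was at −0.10 (adjusted p = 0.863) with all libraries, with 0.02 in sham and −0.22 in VO. Meis2 (−0.76, adjusted p = 0.0858, no overlap) and Irx1 (1.13, adjusted p = 0.147) also belonged to the list of 51 cardiac transcription factors, of which 23 had the same direction in both treatments, 11 higher and 12 lower in the LV.

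Among 26 trabecular and conduction system genes, 18 had the same direction, 5 higher and 13 lower in the LV, with 2 DEGs of opposite direction (Nppb and Hcn4, where 0.0863% of all tested genes were DEGs) and a median of −0.21, against 0.002 for all tested genes. Without sham RV 1 and VO RV 2, 12 of 24 had the same direction (33.9% of all tested genes did), 4 higher and 8 lower, with a median of −0.10. Etv1, a factor of fast-conducting myocardium, was at −0.55 (adjusted p = 0.148), and Tbx3, a repressor in the conduction system, was at 0.40 (adjusted p = 0.195).

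Of 27 natriuretic and stretch-response genes, 18 had the same direction, 8 higher and 10 lower in the LV, and Nppb was the DEG (0.0863% of all tested genes were DEGs). Nppc, which encodes the C-type natriuretic peptide, was on the other side, at 0.0708 to 0.728 FPKM in the LV and 0.462 to 2.57 in the RV (−1.28, adjusted p = 0.0852). Corin, the protease that activates the atrial propeptide, was at 1.75 to 5.83 FPKM in the LV and 3.97 to 12.6 in the RV (−1.18, adjusted p = 0.0858). Npr3, the natriuretic peptide clearance receptor, had −1.65 (adjusted p = 0.142).

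Nppa, which encodes the atrial natriuretic peptide, was at 519, 844 and 952 FPKM in sham LV, 625, 64.2 and 133 in sham RV, 1073, 610 and 1423 in VO LV and 113, 3037 and 73.3 in VO RV. The RV values of 625 and 3037 were those of the 2 libraries with high atrial markers, and the other 4 RV libraries lay below every LV library. With all libraries the log2 difference was 1.91 (SE 0.843, adjusted p = 0.450). Without those 2 it was 3.21 (SE 0.3, adjusted p = 0.00543), 3 in sham and 3.42 in VO, a 9.27-fold difference in the same direction in both treatments. Since 1 VO RV and 1 sham RV library were removed, each RV group then held 2. Both libraries were picked for high atrial RNA and held the highest RV Nppa of their treatment, so their removal lowers the RV side. Myl7 and Myl4, which are atrial markers, also moved, from −0.369 and 0.113 to 0.606 and 0.544. The Nppa value without these libraries is therefore no independent support. The fit without them called 6 genes, of which 4 were among the 12 DEGs (Hand1, Tceal7, Nppb and Mpped2) and the others were Nppa and AABR07026359.1 (−2.47, higher in the RV). The other 8 DEGs kept their direction there, with adjusted p from 0.116 to 0.143.

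**Figure D3:**
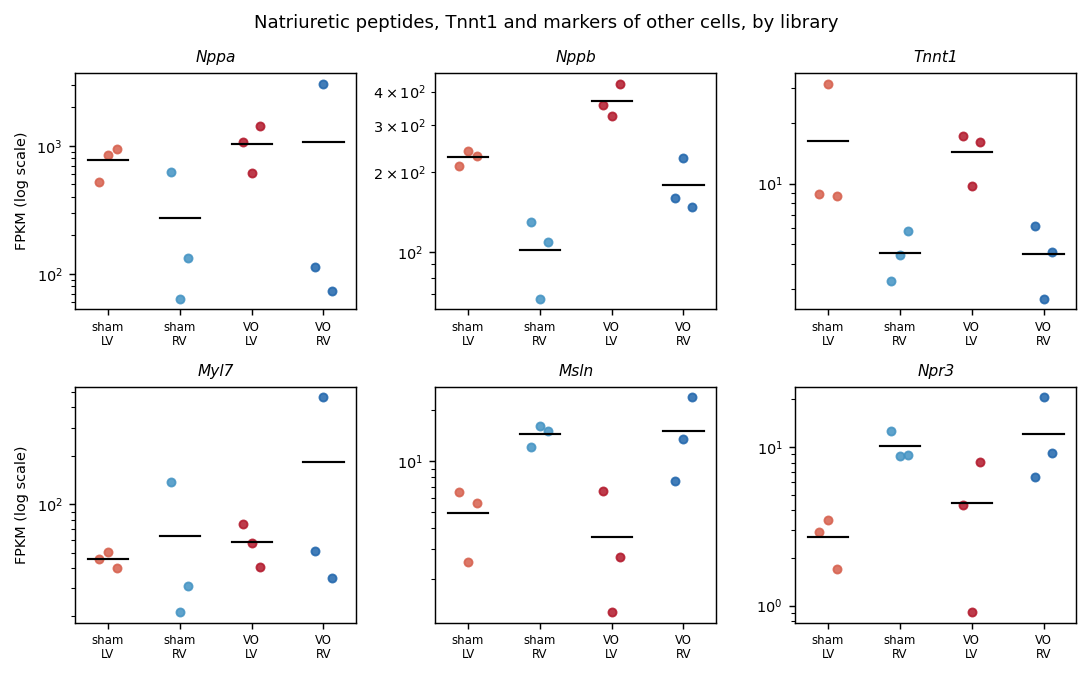
FPKM (y axis, log scale) of Nppa, Nppb, the slow skeletal troponin Tnnt1, the atrial light chain Myl7, the mesothelial marker Msln and the endocardial marker Npr3 in the 4 groups (x axis), with 1 point per library and a bar at the mean of 3. In Nppa and Myl7, sham RV 1 and VO RV 2 stand above the other RV libraries.

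Of 48 contractile genes, 19 (39.6%) had the same direction, with 15 higher and 4 lower in the LV and 0 DEGs (5 higher and 2 lower at an unadjusted p under 0.05 and a fold over 1.3, over all genes 1.99% and 2.49%). Without sham RV 1 and VO RV 2, which had the lowest sums of ventricular cardiomyocyte markers, 14 of 47 did, 9 higher and 5 lower, and the median went from 0.09 to −0.00125. Tnnt1, the slow skeletal troponin T, was at 8.67 to 31.3 FPKM in the LV and 2.69 to 6.14 in the RV without overlap (1.56, adjusted p = 0.0858, 1.51 in sham and 1.60 in VO). Acta1, skeletal actin, was at 0.46 (adjusted p = 0.253), Csrp3, a muscle LIM protein, at 0.45 (adjusted p = 0.250) and the chaperone Cryab at 0.38 (adjusted p = 0.239). Without those 2 libraries Acta1 was at 0.32, Csrp3 at 0.458 and Cryab at 0.22. Of 39 calcium handling genes 15 held their direction, of 39 channel genes 13, of 51 fatty acid oxidation genes 12 and of 38 glucose genes 13. Without sham RV 1 and VO RV 2, 9 of 37 calcium handling genes did. The DEGs in these 4 lists numbered 1, Hcn4 among the channels, where 0.0863% of all tested genes were DEGs.

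Of 70 collagen and matrix genes, 54 (77.1%) had the same direction in sham and VO, 47 lower and 7 higher in the LV, with a median of −0.29 (−0.18 in sham and −0.30 in VO) and 0 DEGs. At an unadjusted p under 0.05 and a fold over 1.3, 15 were lower and 1 was higher in the LV, against 2.49% and 1.99% of all tested genes. Col4a4, a basement membrane collagen, was at −0.62 (adjusted p = 0.0858), Tnc, tenascin C, at −0.83 (adjusted p = 0.186) and Postn, periostin, at −0.61 (adjusted p = 0.214), while Cilp was at 0.40 (adjusted p = 0.160). The 8 fibroblast markers summed to 2063 to 2789 FPKM in the LV and 2533 to 4935 in the RV, highest in VO RV 2 and sham RV 1, and 7 of the 8 were lower in the LV in both treatments. Without those 2 libraries, 45 of 68 matrix genes had the same direction, 30 lower and 15 higher, with a median of −0.10. Tnc was then at −0.522, Postn at −0.385, Col4a4 at −0.541 and Cilp at 0.524.

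In the list of 55 BMP, TGF-beta and activin genes, 27 held their direction, 22 lower and 5 higher in the LV, with 0 DEGs and a median of −0.11. Without sham RV 1 and VO RV 2, 23 of 53 did, 14 lower and 9 higher, with a median of −0.04. Inhba, the activin A subunit, was at 0.433 to 0.895 FPKM in the LV and 1.16 to 3.56 in the RV (−1.19, adjusted p = 0.0858), and Tgfb3 was at 9.75 to 14.0 in the LV and 15 to 30.6 in the RV (−0.63, adjusted p = 0.157). Of 46 Wnt genes 18 did, with Wnt2 at 0.132 to 0.652 FPKM in the LV and 0.689 to 1.51 in the RV (−1.06, adjusted p = 0.0858). Of 51 axon guidance genes 33 did, 17 higher and 16 lower in the LV (17 and 8 without sham RV 1 and VO RV 2), with the DEG Epha3 (0.0863% of all tested genes were DEGs). Sema7a (0.39, adjusted p = 0.103) and the neuropilin Nrp2 (0.34, adjusted p = 0.108) were on the LV side without overlap. Of 24 Notch genes 12 did, 10 higher and 2 lower in the LV, with a median of 0.12, and the ligand Dll4 was at 0.44 (adjusted p = 0.138). Of 21 retinoic acid genes 10 did, and Cyp26b1, which degrades retinoic acid, was at −0.59 (adjusted p = 0.108).

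Of the remaining lists, the same direction was seen in 5 of 7 first heart field genes (2 higher and 3 lower in the LV), 5 of 11 second heart field genes (3 and 2) and 3 of 7 laterality genes (1 and 2). It was also seen in 16 of 54 cell cycle genes (4 and 12), 5 of 16 thyroid hormone genes (1 and 4) and 13 of 22 immediate early genes (2 and 11). The first of these lists held the DEGs Hand1 and Hcn4, of opposite direction. The other 5 held 0, where 0.0863% of all tested genes were DEGs, and these lists were chosen with earlier results known. Sema3c, a guidance cue of the outflow tract, was at −0.67 (adjusted p = 0.242) and Pcsk6, a proprotein convertase, at −0.41 (adjusted p = 0.296).

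No marker of another cell type was a DEG, where 0.0863% of all tested genes were, so nothing is read from that. With an unadjusted p under 0.05 and a fold over 1.3, 8 of 10 epicardial and mesothelial, 4 of 6 endocardial and 3 of 8 fibroblast markers were lower in the LV. Of the red blood cell markers 4 of 7, and of the endothelial markers 1 of 8, were higher. Over all tested genes 2.49% were lower and 1.99% higher. Of 10 tested epicardial and mesothelial markers, 9 were lower in the LV in both treatments, with a median of −0.94 (−0.71 in sham and −1.14 in VO). Msln, mesothelin, was at 1.27 to 6.66 FPKM in the LV and 7.57 to 23.9 in the RV without overlap (−1.79, adjusted p = 0.0858). Wt1 was the exception of the list, at 0.26 (adjusted p = 0.253). All 6 tested endocardial markers were lower in the LV in both, with a median of −0.79, among them Npr3 and Plvap (−1.04, adjusted p = 0.165). The 8 endothelial markers had a median of 0.30 (0.48 in sham and 0.08 in VO) and 5 were higher in the LV in both, among them Erg (0.36, adjusted p = 0.0858), and red blood cell markers had a median of 0.44, with 6 of 7 higher in the LV in both. Without sham RV 1 and VO RV 2 the medians were −1.03 for epicardial and mesothelial, −0.56 for endocardial, 0.25 for endothelial and 0.35 for red blood cell markers. Of the last, 3 of 7 were then higher in the LV in both treatments, and their median in VO was −0.04. Atrial cardiomyocyte markers were lower in the LV in both treatments for 5 of 10 and ventricular cardiomyocyte markers higher for 5 of 9. Without those 2 libraries, 3 of 7 atrial markers were higher and 2 lower in both, with a median of 0.07 in place of −0.74, and of the 9 ventricular markers 1 was higher and 1 lower in both. The same direction was seen in 5 of 10 smooth muscle and pericyte, 1 of 9 macrophage and 3 of 7 Schwann cell and neuron markers, and the remaining marker lists had fewer than 5 tested genes. The part of these cells in the difference of any DEG was not tested.

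**Figure D4:**
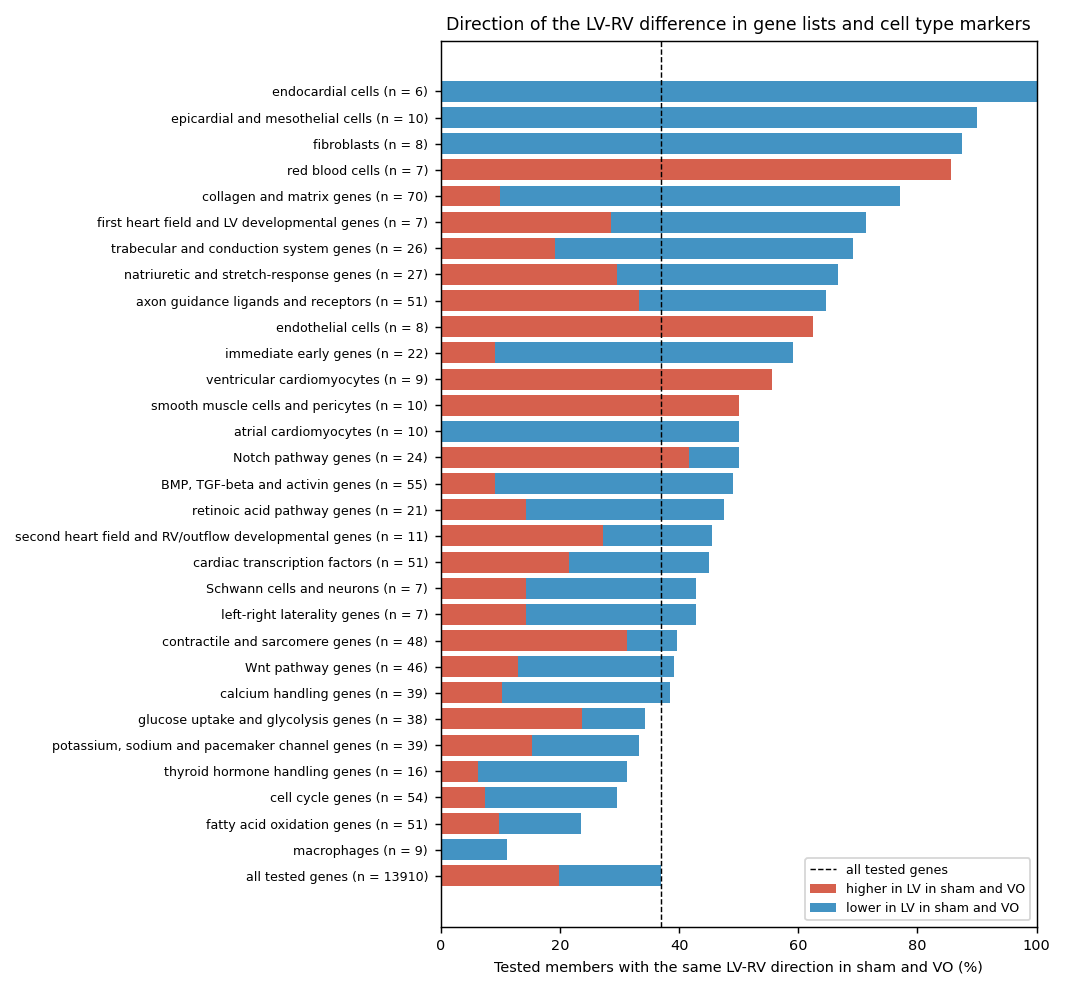
Percentage of the tested members of each gene list and cell type marker list (y axis, lists with at least 5 tested members) that had the same LV-RV direction in sham and VO (x axis), split into higher (red) and lower (blue) in the LV, with the 37% of all tested genes as a dashed line. Matrix genes (77.1%) and fibroblast, epicardial and endocardial markers lie above it, mostly or wholly blue. Red blood cell markers (85.7%) also lie above it, wholly red. Macrophage markers (11.1%) and fatty acid oxidation genes (23.5%) lie below it.

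Genes whose LV-RV difference differed between the treatments numbered 583 (4.19%). In 481 of them (3.46%) the signed value LV minus RV was higher in VO, which does not mean a larger difference in size. The median absolute difference of the 583 was 0.642 in sham and 0.422 in VO, against 0.215 and 0.147 for all tested genes. The largest of each direction among genes averaging 1 FPKM or more were Adra1a, the alpha-1A adrenergic receptor (−2.27 in sham and 1.11 in VO), Prkaa2, a catalytic subunit of AMP-activated kinase (−2.28 and 1.302), and LOC100909750 (−1.87 and 2.17), and on the other side LOC100911746 (2.18 and −2.58), SNORD19B (0.46 and −2.29, on 0 to 6 reads in each library) and a second U6 gene (0.59 and −1.88, on 0 to 5 reads). In limma this count was 0 when sham LV 1, sham LV 2, sham RV 1, VO LV 2 or VO LV 3 was left out, with between 2381 and 3172 genes at an unadjusted p under 0.05 and a fold over 1.3 in those fits, against 3208 with all libraries.

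The number of DEGs of the main effect also moved with single libraries. It was 1 without sham RV 3 or VO LV 1, 3 without sham LV 3 or sham RV 1, 5 without sham LV 1 or sham RV 2, 6 without VO LV 2 or VO RV 2, and 9 to 14 without sham LV 2, VO LV 3 or VO RV 1. Without VO RV 3, the VO RV library with a high sum of Y-linked genes, it was 58, with all 12 DEGs among them and 33 higher in the LV. On the LV side those 58 held the fluid channel Aqp1 (0.44) and, of the 8 tested endothelial markers, Tie1 (0.43) and Erg (0.41) but none of the others. On the RV side they held Corin (−1.38), Cdh11 (−0.77), Igfbp5 (−0.77) and Il33 (−0.79). The adjusted p of each of these genes in limma was 0.0449 or 0.0485. The choice of these examples was made with their values in view.

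**Figure D5:**
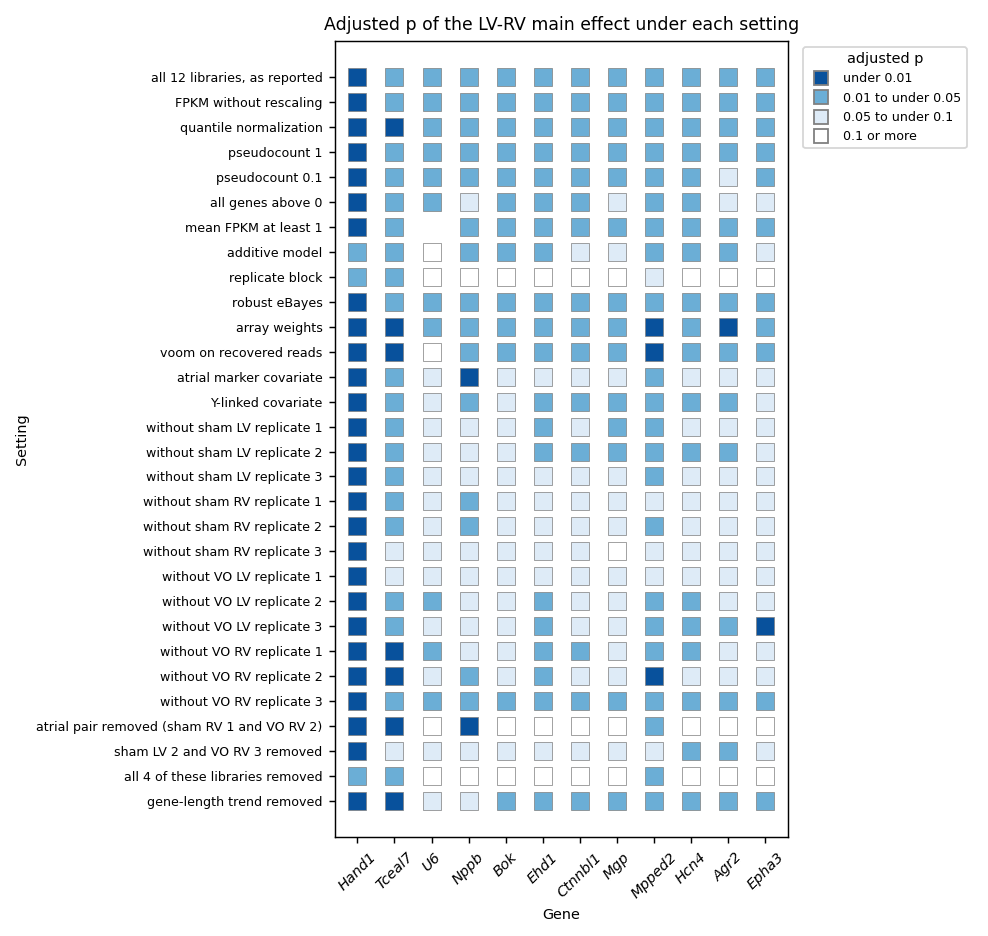
Adjusted p of the main effect (shade of each square) for the 12 DEGs (x axis) with all libraries and under each alternative setting (y axis), where a missing square marks a gene that was not tested. Hand1 is under 0.05 in every setting, Tceal7 and Mpped2 in most, and the others pass in 10 to 19 of 28 or 29 alternatives.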

How the data were processed

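RNA was sequenced from the LV and RV free walls at postnatal day 7, in 3 libraries of each of 4 groups. The submitters' processing notes name HISAT2 2.0.5, featureCounts 1.5.0-p3, StringTie 1.3.3b and DESeq2 1.20.0, and the genome build and strand setting are not given in the sources used here. The authors aligned the reads, counted them per gene and deposited FPKM, and positions and lengths are those of the deposited table, in which no column of values was left unmapped (0 columns). Multiplied by gene length, 100% of values under 200 reads were whole within 0.02, which gave the reads behind each FPKM. DESeq2 was not run here.

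Each library was rescaled by the median of its ratios to the average library, and log2(FPKM + 0.5) was used, so that fold changes of low genes are understated. Genes that averaged 0.5 FPKM or more (13910) were fitted with limma 3.58.1 (R 4.3.3, eBayes with trend) in 1 model of the 4 group means, with the ventricle effect as the mean of the sham and VO differences. The thresholds for DEGs are those of the study's methods. The fit was tested on simulated data. Genes were named as the 10 largest folds of each direction among DEGs that averaged 1 FPKM or more without overlap, filled by smallest p. To these were added up to 5 genes with the smallest adjusted p of each of 20 gene lists, 5 chamber regulators and the 3 largest interactions of each direction. Nppb, the U6 genes, Neurl3, marker genes and the DEGs without VO RV 3 were named outside this rule, and some genes that the rule names are not reported here. The members, the 20 gene lists and the 17 marker lists were chosen with earlier results of these data known. Motif letters were searched in RefSeq promoters (GRCr8). Alternatives were other scalings, pseudocounts, filters, models, covariates and left-out libraries. Added after the data were seen was the removal of each library's trend with gene length.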

Additional observations from a re-analysis of the deposited data

Results flagged for a closer look

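The LV-RV difference of Hand1 in VO minus that in sham was 1.60 on the log2 scale (1.04 in sham, 2.64 in VO, adjusted p = 0.0249 in limma). The call was lost without sham LV 1, sham LV 2, sham RV 1, VO LV 2 or VO LV 3, where 0 genes passed. It was also lost without sham RV 1 and VO RV 2 together and with a block for the replicate number. For the U6 gene ENSRNOG00000054090 the VO minus sham value was −2.23 (adjusted p = 0.0249, from 0 to 5 reads per library).

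The difference between VO and sham passed for 583 tested genes. Among those named it was 3.39 for Adra1a, 3.58 for Prkaa2, 4.03 for LOC100909750, 2.63 for Slc8a1, the sodium-calcium exchanger, 1.67 for Cacnb2, a calcium channel subunit, 1.37 for Shroom3, 1.01 for Pgm5, 1.53 for Wnt9a and 1.43 for Ncoa2. It was −4.76 for LOC100911746, −2.75 for SNORD19B (0 to 6 reads per library) and −2.47 for the U6 gene ENSRNOG00000055884 (0 to 5 reads per library).

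Epha3 in VO LV 3 (2.02 FPKM) stood far above the other 5 LV libraries (0.291 to 0.587). It was 1 of 24 groups of 6 libraries examined in this way, of which chance flags about 1 in 20, and these groups pool sham and VO.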

How the results depend on the processing

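The DEG count of the main effect (12) was 2 with a replicate block (both higher in the LV), 21 with array weights, 5 with the atrial marker sum as a covariate and 70 at an adjusted p under 0.1. It was 6 without sham RV 1 and VO RV 2, 5 without sham LV 2 and VO RV 3, and 7 without all 4, and the genes of these counts, the 70 aside, all had the same direction in sham and VO. Leaving out 1 library gave 1 to 58 DEGs, and 1 to 57 of the same direction. The interaction count (583) was 21 with all genes above 0, 0 with the replicate block, 1045 with array weights, 1213 with the atrial and 176 with the Y-linked covariate, 2, 0 and 0 with those libraries removed, and 0 to 1003 with 1 library left out. The genes past the unadjusted threshold in both treatments (92) were 54 without sham RV 1 and VO RV 2 and 60 to 121 with 1 library left out. In sham, 2517 became 1566 without all 4 and 1892 to 2980 with 1 left out, and in VO, 976 became 672 to 1518.

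The main effect changed sign for Hand2 (0.0122 with array weights, −0.216 to 0.0382 with 1 library left out, positive without sham LV 2, 0.0811 without sham LV 2 and VO RV 3, 0.145 without all 4), Myl7 (−0.369 with all libraries, 0.606 without sham RV 1 and VO RV 2), Irx4 (−0.0122 without all 4), Acvr1 (0.027 without all 4), LOC100911746 (−0.568 to 0.242 with 1 left out, positive without sham LV 1) and LOC100909750 (−0.0593 to 0.379 with 1 left out, −0.0593 without sham LV 1, −0.0455 without sham RV 2, −0.0492 without VO LV 2). None of these passed, and the cause was not tested. No DEG changed sign under any alternative. Correlations of the deviations of same-numbered LV and RV libraries ran from −0.218 to 0.123, which did not show pairing. High or low Y-linked sums were shared within the sham numbers and within VO 1 and VO 2 but not VO 3, and whether other same-numbered libraries share an animal is not known. Hand1, Agr2 and the U6 gene had under 100 reads in each library, which limits the precision of their values.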
